A study of Mus musculus with 5 samples.

Results

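Ras brakes are proteins that shorten the time for which the small GTPase Ras stays bound to GTP or that keep it from passing its signal on. The genes described are Spry1, Spry2 and Spry4 of the Sprouty family, Spred1 and Spred2 of the Spred family, and the Ras GTPase-activating proteins (Ras GAPs) Rasa1, Rasa2, Rasa3, Rasal1 and Nf1. Every probe set whose platform gene symbol was one of these names was used, which gave 30 probe sets of the 34945 that carry a single gene symbol, and 10 genes of 18193. All 10 genes were found.

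The data are 5 Affymetrix arrays of CD4+ T cells from BALB/c mice with the SCID defect, which lack other T and B cells, and with a transgenic T cell receptor that recognises the MOPC315 myeloma, a plasma cell tumor. The 3 activated samples came from lymph nodes draining a flank injection of 100000 MOPC315 cells in 250 µl of growth factor-reduced Matrigel, taken on day 8, with nodes pooled from 12 to 15 mice per experiment. The activated cells were sorted as CD4+ GB113+ to a purity of 95% or more. For the 2 naive samples, lymph nodes were pooled from uninjected transgenic SCID mice. No number of mice and no sort purity were recorded for the naive samples, and the part of cell preparation in the results was not tested. All mice were adults of 7 to 12 weeks. Each sample is given as an independent experiment. The labels repeat the tumor challenge as the treatment of all samples, while the descriptions and the design text give the naive mice as uninjected. No sample of mice given Matrigel alone was analysed here. One antigen receptor is fixed in all cells, so the results are those of a single specificity. The comparison asks which transcripts differ between T cells that met the tumor in the animal and their naive counterparts.

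Ras is switched on in T cells by the antigen receptor, through the exchange factors of the Sos and Rasgrp families, and it drives the Raf, MEK and ERK kinases. Ras GAPs speed the hydrolysis of bound GTP. Spred proteins bring the Ras GAP neurofibromin, the product of Nf1, to the membrane, and Sprouty proteins hold back signalling between receptors and Raf. Sprouty genes are themselves known as transcripts that ERK signalling induces, so that the brake follows the signal.

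Most of these transcripts did not pass the test between activated and naive cells, and the exceptions were both Ras GAPs. Rasa3 was 2.54-fold lower in mean intensity in activated cells. Rasal1 was higher in activated cells and was too dim in naive cells to have been tested on those arrays alone. Of the 20 member probe sets bright enough to be tested, 1 passed in the higher direction, against 4.80% of all 29240 tested probe sets, and 1 in the lower direction, against 2.94%. With both directions together, 2 of 20 member probe sets passed, or 10.0%, against 7.74% of all tested, so the share was near the background. The test was the moderated one of limma, adjusted over all tested probe sets by Benjamini-Hochberg, with a threshold of 0.05. Values were compared as log2(intensity + 16), which understates the change of dim transcripts. A probe set was tested if at least 2 arrays had it above their own 40th percentile, an intensity of 10.5 to 13.4 called the filter intensity here.

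The 2% trimmed mean of all probe sets was nearly equal on the 5 arrays, between 99.2 and 99.4. In other respects the arrays differed. The 3′ over 5′ ratio of the Actb control, a measure of RNA integrity, was 1.19 to 1.29 in activated samples and 1.42 and 1.78 in naive samples, so that it moved with the group, and its part in the results was not tested. The same ratio for Gapdh was 0.685 to 0.740 in activated samples and 0.742 and 0.786 in naive samples. The bioC hybridisation control was high on activated replicates 1 and 2 and naive replicate 1, at 9.22 to 9.41 on the log2 scale, and low on activated replicate 3 and naive replicate 2, at 7.36 and 7.62. Both groups thus lie on both sides of that split. The T cell markers Cd3e, Cd3g, Cd4, Thy1 and Cd28 were bright on every array, with a summed intensity of 8943 to 10449 on activated and 9216 and 9603 on naive arrays. Of these 5, Thy1 passed the test as lower, with 1619.9, 1617.2 and 1229.7 in activated samples and 2447.5 and 2693.0 in naive samples (adjusted p = 0.024 in limma). Cd28 and Cd4 did not pass, with log2 differences of 0.60 and 0.43 (adjusted p = 0.12 and 0.15) and no overlap between the groups. The sums of macrophage, dendritic and NK cell markers were highest on activated replicate 1, where the 7 macrophage and monocyte markers summed to 2712, against 135 and 794 in the other activated samples and 341 and 182 in naive samples. The 6 dendritic cell markers summed to 1771 there, against 180 and 226 in the other activated samples and 128 and 105 in naive samples. The 5 NK cell markers measured summed to 1464, 584 and 869 in activated samples and 468 and 504 in naive samples. Of that sum, the defining marker Ncr1 had 265.3 on activated replicate 1 and 5.6 to 11.2 on the other arrays. Eomes was the 1 of the 4 tested NK cell markers to pass, as higher, with 696.4, 281.6 and 440.9 in activated samples and 154.9 and 43.4 in naive samples (adjusted p = 0.014 in limma). Within the macrophage, dendritic and NK cell lists, Cd14 and Adgre1 were highest on activated replicate 3. Klrd1 and Xcr1 were highest on naive replicate 2, and the other markers measured on activated replicate 1. B cell markers summed to 87.7 or less on each array, and plasma cell markers, which would include those of the tumor, to 41.5 or less. The CD8 T cell markers Cd8a and Cd8b1 moved with the group, with a sum of 405.7, 271.2 and 293.7 in activated samples and 851.6 and 1040.3 in naive samples. Cd8a itself had 79.2, 24.4 and 18.7 in activated samples and 54.0 and 44.6 in naive samples. Cd8b1 passed as lower and Cd8a did not (adjusted p = 7.1e-04 and 0.65 in limma). The 5 exocrine pancreas markers summed to 170.4, 212.1 and 196.5 in activated samples and 248.5 and 241.5 in naive samples. Of the 4 tested, 0 passed as higher and 2 as lower, Cela3b with 8.9 to 17.5 in activated samples and 81.1 and 85.5 in naive samples, and Ctrb1 with 1.4 to 4.2 in activated samples and 22.6 and 24.0 in naive samples. Prss2 of the same list had 131.1, 160.4 and 151.0 in activated samples and 97.2 and 82.5 in naive samples, a log2 difference of 0.63 that did not pass (adjusted p = 0.081). The part of these transcripts in the results was not tested.

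**Figure D1:**
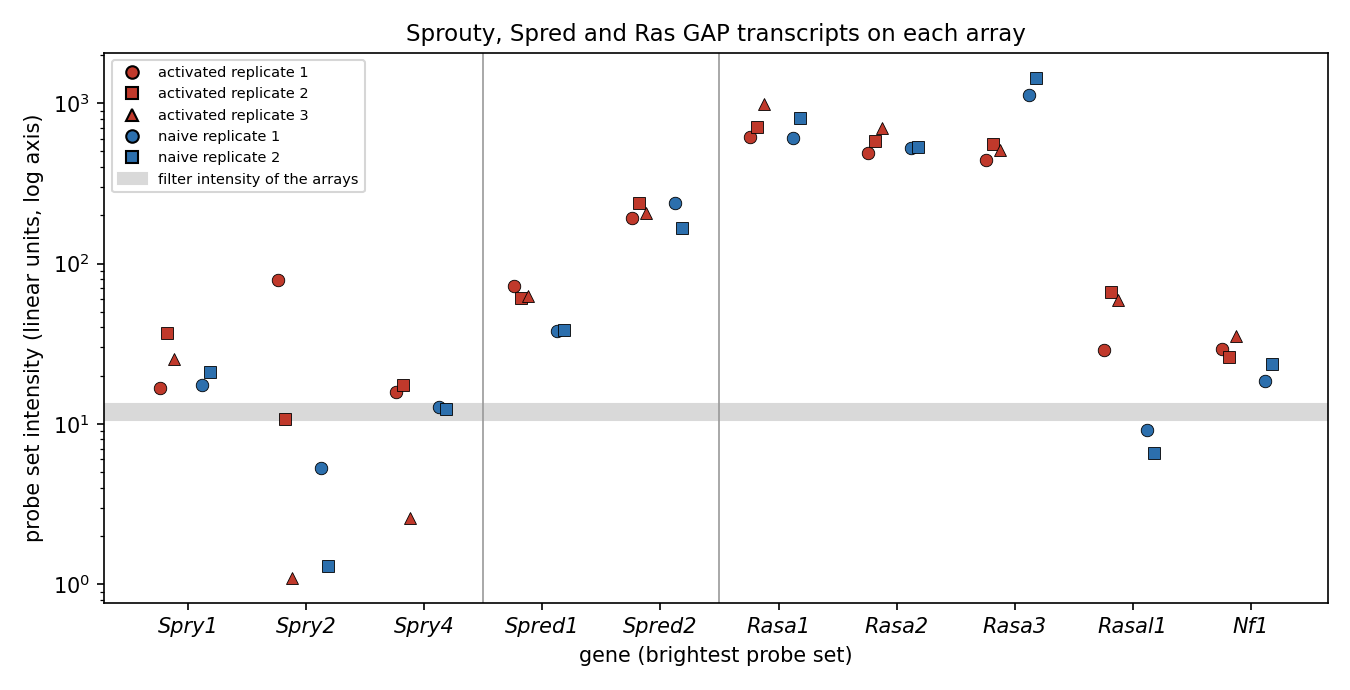
Intensity of the brightest probe set of each of the 10 genes on each array, in linear units on a log axis, with activated arrays in red to the left of naive arrays in blue and the replicate shown by the symbol. The grey band spans the filter intensities of 10.5 to 13.4, and the activated and naive points stand clear of each other for Spred1, Rasa3, Rasal1 and Nf1.

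Rasa3 encodes a Ras GAP of the GAP1 family that binds inositol phosphates at the membrane and also acts on the GTPase Rap1. Its single probe set (1415850_at) had intensities of 439.6, 557.4 and 513.1 in activated samples, against 1122.5 and 1436.1 in naive samples. The brightest activated array lay at less than the dimmer naive array, so the groups did not overlap, as was true of 39.1% of all tested probe sets. Mean intensity was 503 ± 59.5 in activated cells and 1279 ± 222 in naive cells (SD, n = 3 and n = 2). The log2 difference was -1.31 ± 0.18 (SE), with a 95% interval of -1.72 to -0.91 and an adjusted p of 0.0019 in limma. The call held in all 19 alternative settings, where the log2 difference ran from -1.49 to -1.14 and the adjusted p from 6.1e-04 to 0.021. It was -1.16 among the arrays of high bioC intensity, 2 activated and 1 naive, and -1.46 among those of low intensity, 1 of each, a split with no test that was added after the data were seen. Without activated replicate 1, the array with the highest sums of macrophage, dendritic and NK cell markers, it was -1.22. Platelets are known to hold much Rasa3. The 3 platelet markers measured, Pf4, Ppbp and Itga2b, summed to 70.8, 82.1 and 247 in activated samples and to 112.5 and 106.8 in naive samples, with Ppbp between 2.8 and 15.9. Of these, Pf4 had 20.3, 19.4 and 167.1 in activated samples and 69.2 and 50.8 in naive samples, so the groups overlapped. The markers that passed as lower in activated samples, as Rasa3 did, were Thy1, Cd8b1, Cela3b and Ctrb1. The part of platelets and of these transcripts in the Rasa3 difference was not tested. In bulk samples such as these, fewer cells with a transcript and less of it per cell cannot be told apart.

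The bases upstream of the Rasa3 start site are shown because its call held in every alternative setting run, beside those of Rasa1, a bright Ras GAP that did not pass. Sequences were matched by symbol for 8 of the 10 genes in RefSeq's promoter table (GRCm38.p6). Rasal1, the other called gene, and Spry4 had no match there. Each line gives the 250 bases before the start, 5′ to 3′ on the gene's own strand, and capitals mark CCAAT boxes (CCAAT) and GC boxes (GGGCGG) found on either strand. The Rasa3 window is chr8:13677588-13677837 and the Rasa1 window is chr13:85289487-85289736, both on the minus strand.
Rasa3: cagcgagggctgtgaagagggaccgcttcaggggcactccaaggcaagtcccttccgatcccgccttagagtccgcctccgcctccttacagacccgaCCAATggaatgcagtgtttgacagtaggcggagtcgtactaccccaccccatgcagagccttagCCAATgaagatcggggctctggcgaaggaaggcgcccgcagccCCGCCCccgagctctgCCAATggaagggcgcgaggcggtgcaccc
Rasa1: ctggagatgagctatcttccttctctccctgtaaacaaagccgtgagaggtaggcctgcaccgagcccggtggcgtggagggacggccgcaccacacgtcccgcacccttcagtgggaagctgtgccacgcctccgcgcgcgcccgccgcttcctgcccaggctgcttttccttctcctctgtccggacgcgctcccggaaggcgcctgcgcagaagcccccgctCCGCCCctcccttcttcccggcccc
The Rasa3 window holds 3 CCAAT boxes, which start 152, 88 and 29 bases before the start site, and 1 GC box. A CCAAT box was found in 33.8% of all 32851 windows of this length, and 3 or more of them in 2.79%. Among the other matched members, Rasa2 and Spry1, which did not pass, had 1 CCAAT box each. The Rasa1 window holds no CCAAT box and 1 GC box, a motif found in 32.7% of all windows. Neither window holds the E-box CACGTG, the cAMP response element TGACGTCA, the AP-1 site TGANTCA or TATAAA on either strand. The ETS site CCGGAAG, present in 6.91% of all windows, occurs 1 time in the Rasa1 window and not in that of Rasa3. Such matches describe letters only, and no binding was measured.

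Rasal1 encodes a Ras GAP that is drawn to the membrane by calcium. Its single probe set (1417858_at) had intensities of 28.9, 66.9 and 59.6 in activated samples, against 9.2 and 6.6 in naive samples. All activated arrays lay above the filter intensity and both naive arrays below it, so the transcript entered the test through the activated arrays alone. The log2 difference was 1.46 ± 0.30 (SE), with a 95% interval of 0.80 to 2.11 and an adjusted p of 0.015 in limma. Its size is set in part by the pseudocount, being 2.50 with a pseudocount of 1 and 0.67 with 64. The call ended with no filter (adjusted p = 0.063), and on leaving out the activated replicates 2 or 3 or the second naive replicate, at log2 differences of 1.29, 1.35 and 1.38 and adjusted p of 0.071, 0.056 and 0.074. On activated replicate 1, where the sums of macrophage, dendritic and NK cell markers were highest, Rasal1 was the lowest of the activated arrays, and without that array the log2 difference was 1.73. Within the arrays of high bioC intensity it was 1.28, and within those of low intensity 1.74. Eomes was the marker that passed as higher in activated samples, as Rasal1 did, and its part in the Rasal1 difference was not tested.

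The other Ras GAPs did not pass. Rasa1, or p120 RasGAP, which docks on phosphorylated tyrosines through its SH2 domains, has 3 probe sets. The brightest (1426476_at) had 618.1, 705.4 and 990.2 in activated samples and 602.5 and 813.2 in naive samples, with overlapping groups. Its log2 difference was 0.11, with a 95% interval of -0.39 to 0.61 (adjusted p = 0.83). The second (1426477_at) was nearly constant in activated cells, at 469.1, 469.8 and 466.7, against 429.4 and 386.8 in naive cells, a log2 difference of 0.19 (adjusted p = 0.53). The dimmest (1426478_at) had 91.2, 87.2 and 93.2 in activated cells and 71.6 and 44.3 in naive cells, and its log2 difference of 0.55 had a 95% interval of 0.06 to 1.04 and an adjusted p of 0.17. On the last pair of probe sets every activated array lay above both naive arrays, and on the brightest they did not.

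Rasa2, which like Rasa3 belongs to the GAP1 family, did not pass on either probe set. Its brighter probe set (1455181_at) had 492.5, 577.8 and 703.7 in activated samples and 528.5 and 529.9 in naive samples. The log2 difference was 0.14, with a 95% interval of -0.27 to 0.56 (adjusted p = 0.72). The other (1422785_at) had 329.3, 379.8 and 457.5 in activated cells and 276.3 and 424.3 in naive cells, a log2 difference of 0.16 (adjusted p = 0.73). Both overlapped between groups. The Rasa2 intervals, with upper and lower ends of 0.66 and -0.33 for the dimmer probe set, do not reach the Rasa3 value of -1.31, though the difference between the genes was not itself tested.

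Nf1, the neurofibromatosis gene, was measured by 1 tested probe set of 3. That probe set (1438067_at) had 29.2, 26.3 and 35.3 in activated samples and 18.4 and 23.8 in naive samples. The groups did not overlap, yet the log2 difference of 0.32 had a 95% interval of -0.20 to 0.84 and did not pass (adjusted p = 0.47). The other Nf1 probe sets lay between 1.0 and 23.0 and were not tested.

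**Figure D2:**
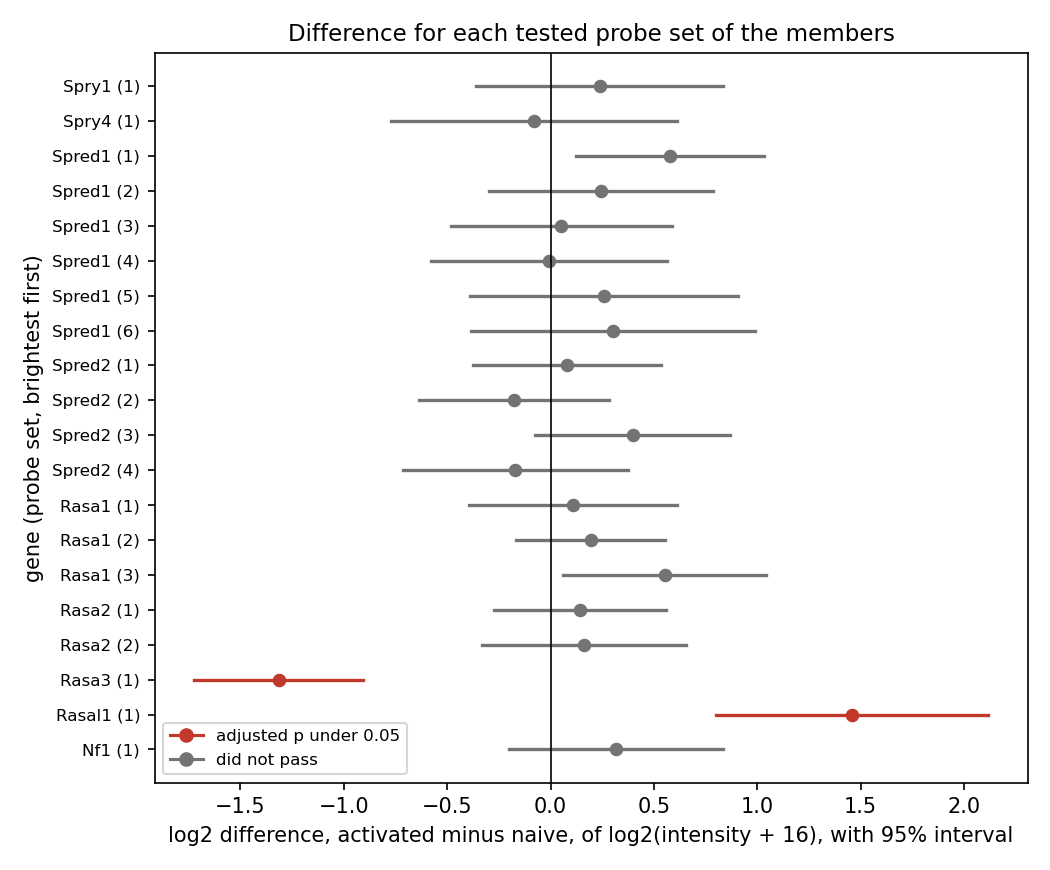
Log2 difference, activated minus naive, with its 95% interval for each of the 20 tested member probe sets, numbered within a gene from the brightest. The interval of Rasa3 lies below 0, that of Rasal1 above 0, and both are drawn in red as passing the test; the brightest Spred1 and the dimmest Rasa1 probe sets have intervals above 0 but did not pass after adjustment.

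The Spred genes had 0 of 10 tested probe sets past limma's adjusted threshold, and 1 at an unadjusted p under 0.05. The share of all tested probe sets under that unadjusted cut was not computed, so such counts, here and below, have no background beside them. Spred1 has 8 probe sets, of which 6 were tested. The brightest (1423160_at) had 72.2, 61.4 and 62.8 in activated samples, against 38.2 and 38.7 in naive samples. Replicates agreed closely within each group and the groups did not overlap. Mean intensity was 65.5 ± 5.87 in activated cells and 38.5 ± 0.354 in naive cells (SD, n = 3 and n = 2), and the log2 difference was 0.58 ± 0.20 (SE, 95% interval 0.12 to 1.03, adjusted p = 0.13). It did not pass in any alternative setting, with adjusted p from 0.095 to 0.47. The other 5 tested probe sets had log2 differences from -0.01 to 0.30, all with overlapping groups, so the probe sets of Spred1 did not give one answer. Which of them reports the transcript best was not tested.

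Spred2 was measured by 4 tested probe sets of 5. The brightest (1434403_at) had 192.5, 240.1 and 207.1 in activated samples and 239.0 and 167.2 in naive samples, a log2 difference of 0.08 with a 95% interval of -0.38 to 0.54 (adjusted p = 0.87). Of the others, 1436892_at stood at 108.6, 111.2 and 93.4 in activated cells and 90.2 and 62.3 in naive cells, with no overlap and a log2 difference of 0.40 (adjusted p = 0.31). The remaining tested pair were lower on average in activated cells, at -0.18 and -0.17 (adjusted p = 0.67 and 0.74). The 4 tested Spred2 probe sets lay above the filter intensity on every array, with differences on both sides of 0 and none past the test.

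The Sprouty genes were dim in both groups. Of 7 probe sets, 2 were tested, and 0 passed limma's adjusted threshold or an unadjusted p of 0.05. Spry1, a Sprouty gene known to be induced by antigen receptor signals in T cells, had 16.8, 37.1 and 25.4 in activated samples and 17.5 and 21.2 in naive samples (1415874_at). These values overlapped, and the log2 difference was 0.24, with a 95% interval of -0.36 to 0.83 (adjusted p = 0.66). The interval thus holds differences of either sign.

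Spry2 was not tested, because neither of its probe sets was above the filter on 2 arrays. The probe set 1436584_at had 78.6, 10.8 and 1.1 in activated samples and 5.3 and 1.3 in naive samples. The single high value fell on activated replicate 1, the array with the highest sums of macrophage, dendritic and NK cell markers. Within those lists, Cd14 and Adgre1 were highest on activated replicate 3, and Klrd1 and Xcr1 on naive replicate 2. Whether other cells carried the Spry2 signal was not tested. The second Spry2 probe set (1421656_at) showed no such value, with 8.5, 16.4 and 3.9 in activated samples and 10.9 and 6.4 in naive samples.

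Spry4 had 4 probe sets, and 3 of them lay below the filter intensity on every array, at 0.3 to 5.3. The fourth (1440867_at) had 15.8, 17.4 and 2.6 in activated samples and 12.7 and 12.4 in naive samples, with a log2 difference of -0.08 (adjusted p = 0.92) and a 95% interval of -0.77 to 0.61. The values do not show that the transcript is absent.

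The genes around the brakes were read by the brightest probe set of each gene. Among such probe sets 5.52% of 12873 passed in the higher and 3.19% in the lower direction, with a median log2 difference of -0.03. Of 6 tested genes among other Ras brakes, 0 passed in limma in either direction, with 0 higher and 1 lower at an unadjusted p under 0.05 and a median of -0.16. That 1 was Rasal3, a Ras GAP of blood cells, named here after its values were seen. It had 611.1, 519.9 and 693.1 in activated samples and 816.3 and 1229.3 in naive samples, with no overlap and a log2 difference of -0.72 (adjusted p = 0.071). Of 3 tested Ras GTPases, 0 passed in either direction, adjusted or unadjusted, with a median of 0.02. Of 7 tested Sprouty partners, such as the ubiquitin ligase Cbl, 0 passed adjusted or unadjusted, with a median of 0.02.

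Of 12 tested Ras activators and adaptors, 0 passed as higher and 1 as lower, with a median log2 difference of -0.10. At an unadjusted p under 0.05 in limma, 1 was higher and 3 were lower. Rasgrp2, an exchange factor that acts chiefly on Rap1, had 162.9, 232.2 and 204.4 in activated samples and 306.9 and 474.8 in naive samples. The groups were apart, and the log2 difference was -0.90 (adjusted p = 0.041), a call lost in 8 of 19 alternative settings, among them leaving out any activated array or naive replicate 2, and without the last it was -0.59 at an adjusted p of 0.25. Rasgrp1, the main Ras exchange factor downstream of the T cell receptor, had a log2 difference of -0.07 (adjusted p = 0.89). Sos1, named after its values were seen, had 168.7, 183.9 and 205.0 in activated samples and 256.7 and 327.2 in naive samples. Its log2 difference of -0.60 did not pass (adjusted p = 0.086). Ptpn11 went the other way, at 0.49, and did not pass (adjusted p = 0.10). Of 8 tested genes from Raf to ERK, 1 passed as higher and 0 as lower, with a median of 0.02. Ksr1, a scaffold of that cascade, had 134.9, 139.2 and 105.6 in activated samples and 71.0 and 62.9 in naive samples. Its log2 difference was 0.77 (adjusted p = 0.045), on a probe set whose suffix marks sequence shared among transcripts, and the call was lost in 10 of 18 alternative settings, including on leaving out any of the 5 arrays, where the adjusted p reached 0.18.

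The list of genes that ERK signalling induces had 6 of 15 tested higher, 0 lower and a median log2 difference of 0.59. It was chosen with earlier results of these data known, so its count is a description only. The other 9 tested did not pass. Their log2 differences ran from -0.47 for Etv4 to 0.81 for Ier3, with Fos at -0.05 and Myc at -0.07. Dusp4, a phosphatase that switches ERK off in the nucleus, had 197.7, 177.7 and 227.2 in activated samples against 1.0 and 0.8 in naive samples. Both naive values lay below the filter intensity, so Dusp4 entered the test through the activated arrays alone. The early growth response factors Egr3, Egr2 and Egr1 rose by 3.16, 2.80 and 2.73 on the same log2 scale. The remaining called genes, named after their values were seen, were Dusp6, an ERK phosphatase of the cytoplasm, at 1.33, and Phlda1 at 0.90, which lost its call in 6 of 19 alternative settings, among them leaving out either naive replicate or the activated replicates 2 or 3 (adjusted p from 0.061 to 0.093). The tested Sprouty probe sets did not pass, with log2 differences of 0.24 for Spry1 and -0.08 for Spry4. Both were dim, and their intervals were wide, at -0.36 to 0.83 for Spry1 and -0.77 to 0.61 for Spry4. Whether the Sprouty genes differed from the called ERK-induced genes was not tested.

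**Figure D3:**
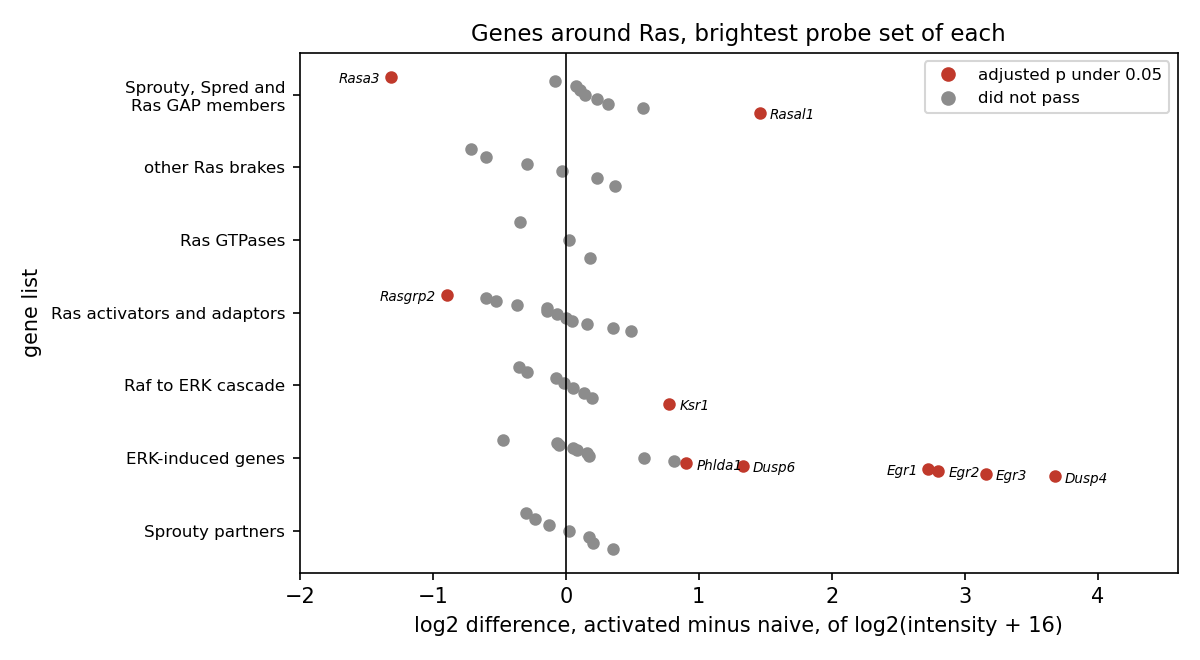
Log2 difference, activated minus naive, of the brightest probe set of each tested gene, by list, with genes past the adjusted threshold in red and named. Rasa3 and Rasal1 are the only members in red, at -1.31 and 1.46, and the ERK-induced genes hold the 4 points above 2.

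Genes with the most similar pattern to each called member over the 5 arrays were found by the root mean square difference of centred log2 values, among 12872 tested genes. For Rasa3 these were Igtp, Vipr1, Tmem86b, Btbd19 and Samd9l, with differences of 0.079 to 0.117. Igtp, the nearest, had 1318.9, 1442.7 and 1432.8 in activated samples and 3352.8 and 3945.0 in naive samples. For Rasal1 they were Sh3rf1, Stil, Hes5, Sgo2a and Myl4, with differences of 0.137 to 0.157. Sh3rf1 had 129.1, 239.9 and 235.4 in activated samples and 48.8 and 47.5 in naive samples, with the same low activated replicate 1 as Rasal1. The likeness rests on 5 arrays in 2 groups and is a description only.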

How the data were processed

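For each of 45101 probe sets the deposited table holds a linear intensity per array. Per the labels' protocols, total RNA was taken with Trizol and 6 µg was made into biotinylated cRNA. The method that summarised the probes, any scaling and any detection call are not stated there. Gene names came from the platform annotation, and the 64 array controls were left out of the tests. Values were used as log2(intensity + 16), with no further normalization, and fitted per probe set with lmFit and eBayes with an intensity trend (limma 3.58.1, R 4.3.3), two-sided, with group as the only term. The test code was tested on simulated data. No array was a copy of another (0.947% of values equal at most). The number of arrays, 3 and 2, limits the precision.

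The members, the gene lists and the tests were chosen with earlier results of these data known. The text names all members, in each list the called genes up to 4 per direction, and the 5 nearest genes to each called extreme. Other names, single cell type markers included, were chosen after their values were seen. Alternatives covered the normalization (quantile, median), the filter (none, or the 60th percentile), the pseudocount (1 and 64), the choice of probe sets, the variance model, the replicate number as a block, the bioC control as a covariate, and leaving out each array. List genes with no single-symbol probe set were not analysed here.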

Additional observations from a re-analysis of the deposited data

How the results depend on the processing

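The Rasa3 call held in all 19 alternatives, and the Rasal1 call was lost in 4. Member probe sets called higher were 0 with no filter and 0 to 1 on leaving out an array, against 1, and those called lower were 1 throughout. Over all probe sets, 1403 were higher and 859 lower. With no filter these were 870 and 510, with 1 probe set per gene 819 and 533, with averaged probe sets 846 and 493, and with the bioC covariate 1962 and 1571. Fewer features were tested with 1 or averaged probe sets per gene; for the others the cause was not tested. Leaving out an array gave 723 to 1331 higher and 324 to 645 lower.

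Log2 differences that turned sign were all of probe sets that did not pass, and the cause was not tested. The brightest Spred2 probe set turned to -0.020 with averaged probe sets. Spred1 1452911_at turned to 0.00075 with a pseudocount of 64, 0.032 with array weights and 0.0030 with the bioC covariate. On leaving out an array the range was -0.092 to 0.15 for that probe set, -0.019 to 0.15 for Spred1 1460116_s_at, -0.060 to 0.67 for Spred1 1428777_at, -0.16 to 0.32 for Spred2 1434403_at, -0.38 to 0.040 for Spred2 1441802_at, -0.10 to 0.32 for Rasa1 1426476_at, -0.13 to 0.46 for Rasa2 1422785_at and -0.23 to 0.19 for Spry4.

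The groups share the replicate numbers 1 and 2, which were not taken as pairs in the main fit. The deviations of same-numbered arrays correlated at 0.17 and -0.12. Those of activated replicate 3 and naive replicate 2, both of low bioC intensity, correlated at 0.30. With 2 naive arrays the naive deviations mirror each other, so these values cannot decide on pairing. With the replicate number as a block, 1365 probe sets were higher and 911 lower. Rasa3 was -1.33 and Rasal1 1.35, both past the threshold, while Spry4 and Rasa1 1426476_at turned to 0.19 and -0.082. Activated replicate 3 has no naive array of its number and was fitted fully by its own block. These log2 differences therefore equal those without that array. No detection limit is known, so intensities below the filter have no order.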
